A study of Mus musculus with 6 samples.

Results

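The regions described here are the accessible chromatin peaks that lie at microRNA genes in mouse leukaemia cells. A peak was taken when the deposited table gave its nearest transcription start as that of a gene whose name begins with Mir and a digit or with Mirlet, and when the peak centre lay at most 10000 bp from that start. This gave 2573 of 175929 peaks, at 621 gene names. A further 2735 peaks were assigned to such genes but lay farther away, the nearest of them at 10007 bp and the last peak inside the limit at 9999 bp. A gene held a median of 3 peaks, 191 genes held 1, and Mir21a held the most with 25.

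A microRNA is cut from a hairpin in a longer primary transcript, loaded into an Argonaute protein, and guides it to messenger RNAs that pair with its seed, the bases near its 5′ end. Many microRNA hairpins lie in introns of protein-coding host genes and are made from the host's transcript, so that the annotated start of such a gene is the end of a hairpin and not a place where transcription begins. In blood cells microRNAs are known to shape lineage choice, inflammatory responses and leukaemia growth.

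To examine what loss of 1 Usp18 allele does in an established leukaemia, ATAC-seq was run on AE9a cells, in which a transposase inserts adapters into open DNA. AE9a is a truncated AML1/ETO fusion, delivered with GFP by retrovirus into fetal liver cells. All libraries came from Usp18+/f UBCER-Cre AE9a cells, in which the ubiquitin C promoter drives a tamoxifen-inducible Cre in every cell type, passaged through irradiated C57BL/6 recipients. Recipients that had become ill were injected with oil (Usp18+/f, replicates 1, 2 and 4) or tamoxifen (labelled Usp18+/D, replicates 1, 3 and 4), and on day 3 from the first injection Lin- c-Kit+ GFP+ splenocytes were sorted. No group received tamoxifen without the floxed allele, so tamoxifen and the deletion cannot be told apart. The labels do not state that each library was a separate mouse, and the study's own statements differ on the number of animals behind the ATAC-seq, so p-values measure the spread between these libraries, which may be technical. Usp18 encodes a protease that removes ISG15 from proteins and restrains type I interferon signalling. The peak with the most tags at its promoter held 459, 415 and 439.9 tags with oil and 441, 468 and 438 with tamoxifen, and does not test the deletion.

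Libraries held 57.4 to 74.7 M tags (1 M is 1000000), of which 17.5 to 21.1 M fell in peaks, and microRNA gene peaks took 1.19% to 1.22% of the tags in peaks in every library. Their median was 43 to 56 tags per library, a depth at which counting error contributes to the spread. Of 10 progenitor and blast marker genes, 9 had a promoter peak (Mpo had none), with a summed level of 336 to 337 tags per 1000000 in peaks with oil and 341 to 365 with tamoxifen. Promoter peaks were found for 3 of 7 T cell markers (17.3 to 20.0 against 17.2 to 18.9), 6 of 7 erythroid markers (183 to 186 against 164 to 176) and 2 of 8 mature myeloid markers (2.48 to 2.77 against 2.61 to 3.83). Cd3e, Cd3d, Cd4, Cd8a, Hbb-bs, Ly6g, S100a8, S100a9, Csf1r, Mmp8 and Ltf had no promoter peak. In bulk libraries a smaller share of cells with an open region and less opening per cell cannot be told apart.

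The mature microRNAs of the genes on which the results turn are printed first, from RefSeq for GRCm38.p6, 5′ to 3′, with the seed (bases 2 to 8) in capitals. The first set are microRNAs whose gene held a peak that passed the test between oil and tamoxifen, and the second set are well known blood microRNAs whose peaks did not.
mmu-miR-6959-5p: uGGGAAACcugugucgggcugug
mmu-miR-7023-3p: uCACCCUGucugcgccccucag
mmu-miR-8096: gGGCACGGuagcugaagagu
mmu-miR-149-5p: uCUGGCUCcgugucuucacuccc
mmu-miR-140-3p: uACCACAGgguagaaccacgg
mmu-miR-1938: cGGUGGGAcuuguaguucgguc
mmu-miR-5710: uCUUGGGAcauaguguaaggca
mmu-miR-681: cAGCCUCGcuggcaggcagcu
mmu-miR-142a-3p: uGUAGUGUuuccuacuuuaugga
mmu-miR-144-3p: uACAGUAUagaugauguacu
mmu-miR-132-3p: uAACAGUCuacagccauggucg
mmu-miR-212-3p: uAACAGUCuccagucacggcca
mmu-let-7a-5p: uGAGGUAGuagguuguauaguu
mmu-let-7b-5p: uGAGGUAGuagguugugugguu

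A mature sequence was found for 553 of the 621 genes, 921 sequences in all with 824 distinct seeds, of which 68 were shared by at least 2 genes. The largest shared seed was that of let-7, GAGGUAG, in 7 genes with 34 peaks, and miR-132 and miR-212, which come from neighbouring hairpins, share AACAGUC as printed above. Of the 19 genes with a peak that passed the test, 18 had a mature sequence (Mir3960 did not), and 5 shared a seed with another gene that has a peak here. The passed peaks therefore do not belong to 1 seed family.

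The peaks themselves are shown for the 3 regions with the smallest adjusted p and for 1 that lost tags, from the plus strand of GRCm38.p6. Capitals mark matches on either strand, anywhere in the peak, to short motifs of blood and stress factors. The letters searched were TGTGGT for RUNX factors, GAGGAAGT for ETS factors and PU.1, TGANTCA for AP-1, TTGCNNAA for C/EBP factors, AGATAA for GATA factors, GAAANNGAA for the interferon-response element, TTCNNNGAA for STAT factors, CACGTG for the E-box and TTCNNGAA for the heat-shock element.
Mir6959 peak, chr15:89309895-89310179: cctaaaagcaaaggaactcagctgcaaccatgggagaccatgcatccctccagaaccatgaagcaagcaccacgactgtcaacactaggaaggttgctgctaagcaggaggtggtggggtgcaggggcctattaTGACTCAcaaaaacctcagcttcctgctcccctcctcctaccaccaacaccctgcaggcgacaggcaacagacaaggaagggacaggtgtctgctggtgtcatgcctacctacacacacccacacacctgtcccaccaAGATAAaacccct
Mir3960 peak, chr2:32715214-32715472: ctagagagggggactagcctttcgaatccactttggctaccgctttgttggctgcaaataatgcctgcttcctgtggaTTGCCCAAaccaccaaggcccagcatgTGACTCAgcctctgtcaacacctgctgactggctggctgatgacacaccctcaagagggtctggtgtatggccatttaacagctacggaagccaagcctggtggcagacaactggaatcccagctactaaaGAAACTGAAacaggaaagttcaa
Mir7023 peak, chr4:149658104-149658332: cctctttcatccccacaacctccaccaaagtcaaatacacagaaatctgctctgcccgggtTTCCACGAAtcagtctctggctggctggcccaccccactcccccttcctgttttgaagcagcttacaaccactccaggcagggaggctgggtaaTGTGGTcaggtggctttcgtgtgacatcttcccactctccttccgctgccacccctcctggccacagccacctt
Mir681 peak, chr12:69759589-69759815: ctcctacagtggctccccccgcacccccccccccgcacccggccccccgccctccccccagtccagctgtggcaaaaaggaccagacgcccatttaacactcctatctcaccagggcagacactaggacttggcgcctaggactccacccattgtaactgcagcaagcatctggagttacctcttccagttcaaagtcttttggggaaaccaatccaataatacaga

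The Mir6959 peak held an AP-1 and a GATA match, the Mir3960 peak a C/EBP, an AP-1 and an interferon-response match, the Mir7023 peak a STAT and a RUNX match, and the Mir681 peak none (0) of these letters. Over the central 200 bp of each region, RUNX letters were in 17.96% of the 2573 microRNA gene peaks (462) and in 18.7% of all 175738 peaks on placed chromosomes, and GATA letters in 11.9% against 15.1%. Among the 22 microRNA gene peaks that gained tags, 9 held the RUNX letters (40.9%) and 8 the GATA letters (36.4%), beside 33.8% and 22.5% of the 2132 other peaks that gained. None (0) of the 5 that lost tags held the RUNX letters, beside 12.2% of the 288 other peaks that lost. The interferon-response letters were in 2 of the 22 gaining peaks, in 4.00% of microRNA gene peaks and in 5.13% of all peaks, AP-1 letters in 2 of the 22, 5.36% and 6.61%, and C/EBP letters in 3 of the 22, 5.95% and 6.45%. Each of the STAT, E-box and heat-shock letters was in 2 of the 22 and the ETS and PU.1 letters in 1, with 4.86%, 5.09%, 4.62% and 2.64% of microRNA gene peaks, and 4.86%, 4.59%, 4.77% and 3.75% of all peaks. A match is a run of letters and not a bound site. Median GC content was 52.5% in microRNA gene peaks and 50.5% in all peaks.

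Few microRNA gene peaks differed between the groups, and most that did gained tags. At an adjusted p under 0.05 (DESeq2, adjusted over the whole table), 27 of 2573 passed, which is 1.05% beside 1.39% of all peaks and 0.975% of the other peaks within 10000 bp of a start. Of these, 22 gained tags after tamoxifen (0.855%), where 1.22% of all peaks gained, and 5 lost tags (0.194%), where 0.167% of all peaks lost. With a fold change over 2 as well, 7 were called (0.272%), beside 0.654% of all peaks, and 6 of them gained, beside 0.588% of all peaks. An unadjusted p under 0.05 was reached by 226 (8.78%), beside 9.02% of all peaks, and in 529 (20.6%) the 3 oil values did not overlap the 3 tamoxifen values, beside 21.8% of all peaks. The median log2 change was -0.01 in microRNA gene peaks, -0.00 in all peaks and -0.02 in the other peaks near a start. With edgeR's quasi-likelihood test 62 microRNA gene peaks passed (2.41%), beside 2.92% of all peaks. The difference between these shares and those of all peaks was not tested.

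**Figure D1:**
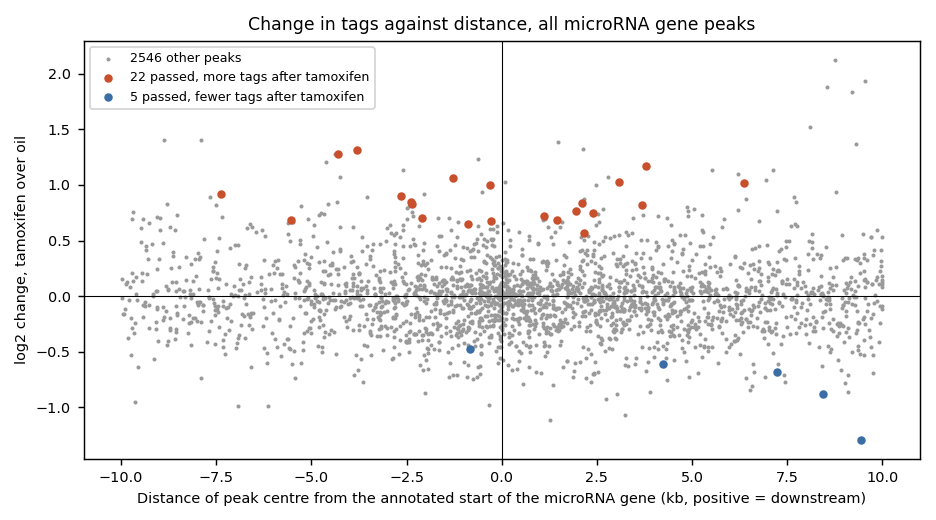
Log2 change of tags (tamoxifen over oil, vertical axis) against the distance of the peak centre from the annotated start of its microRNA gene in kb (horizontal axis, positive values downstream), 1 point per peak. The 22 peaks that passed with more tags (orange) and the 5 with fewer (blue) stand among 2546 others (grey), on either side of the start.

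Passed peaks lay at all distances. Within 1000 bp of the annotated start 3 gained and 1 lost of 527 (0.759% passed). Beyond that up to 3000 bp 11 gained and 0 lost of 689 (1.60%). Farther than 3000 bp 8 gained and 4 lost of 1357 (0.884%). Of all peaks 1.39% passed. By the class in the table, 11 gained and 2 lost of 1028 in introns (1.26% passed, beside 1.47% of all intron peaks). In intergenic DNA 6 gained of 664 (0.904% beside 1.47%), and at a promoter 3 gained and 1 lost of 322 (1.24% beside 1.18%). Where the hairpin lay in a gene of its own strand, 16 gained and 5 lost of 1837 peaks (1.14% passed). Where it lay only in a gene of the other strand 1 gained of 233 (0.429%). Where it lay in no other gene 5 gained of 441 (1.13%). The 135 peaks that touched the hairpin itself held 0 that passed in DESeq2 and 8 with an unadjusted p under 0.05. Those 8 are 5.93%, beside 9.02% of all peaks. Differences between these shares by position were not tested. Of the 2573 peaks, 1760 were called by the authors in both groups, 514 in oil alone (median log2 change -0.26) and 299 in tamoxifen alone (0.27), and these lists came from the libraries compared here, so those medians are a description. At a median of 149 tags per kb of peak with oil, microRNA gene peaks were less dense than the other peaks near a start (204). Those classed as promoter held 204 per kb, beside 1085 for all promoter peaks, and the 86 with a coding start within 1000 bp held 545.

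How many peaks passed depended on which libraries were used. In the 27 passed peaks the groups did not overlap. Such separation, here and in single passed peaks below, follows largely from selection by the p-value and adds no support to it. Among the 27, replicate 3 was the tamoxifen library farthest from oil in 24, and replicate 4 was the nearest in 17, replicate 1 in 9 and replicate 3 in 1. Without tamoxifen 3, 4 peaks passed and 0 were called in DESeq2, and without tamoxifen 4, 87 passed (3.38%), 60 with more tags and 27 with fewer, where 3.71% of all peaks passed. All 27 were among the 87, and 27 were called. Without oil 1, oil 2, oil 4 or tamoxifen 1 the counts that passed were 7, 8, 11 and 18. The share of all peaks that passed is given only for the fit without tamoxifen 4, and the share called for none of these fits. The other counts therefore do not show whether microRNA gene peaks changed apart from the whole table. The same 4 peaks, at Mir6959, Mir3960, Mir7023 and Mir8096, passed in each of the 6 fits that left out 1 library, and no passed peak turned its direction in any of them. The other 23 lost the threshold without at least 1 library.

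The peak with the smallest adjusted p lay at -4305 bp from Mir6959, in intron 1 of Sbf1, which encodes a myotubularin-related pseudophosphatase. In the order oil 1, 2 and 4 and tamoxifen 1, 3 and 4, kept below, it held 46.3, 50.7, 69.9, 118, 187 and 104 tags after division by the DESeq2 size factors. All tamoxifen values lay above the highest oil value, and tamoxifen 3 was the highest. The log2 change was 1.28 ± 0.24 (SE, adjusted p = 8.01e-05) and 0.99 to 1.48 when 1 library was left out. A neighbouring peak, at chr15:89309412-89309665, was weaker in tags (16.5, 17.6, 17.9, 38.7, 51.3 and 40.0) with a log2 change of 1.31 ± 0.36 (adjusted p = 0.0231). The peak at the Sbf1 promoter held 794, 733, 708, 753, 820.0 and 702 tags, with a log2 change of 0.03 (adjusted p = 0.991), so the gain was measured in the intron and not at the host's start.

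The second lay upstream of both Mir3960 and Cdk9, which encodes the kinase of the elongation factor P-TEFb. This peak, at chr2:32715214-32715472, was -2371 bp from the Mir3960 start and -2559 bp from the Cdk9 start. It held 136, 146, 160.4, 244, 334 and 219.7 tags, a log2 change of 0.84 ± 0.16 (adjusted p = 0.000124). The peak beside it, at chr2:32714945-32715169, held 143, 146, 165, 246, 302 and 195 tags, a log2 change of 0.70 ± 0.16 (adjusted p = 0.00352). In both the tamoxifen values stood above all oil values. The remaining 2 peaks of Mir3960, at -174 and -694 bp, had log2 changes of 0.00 and 0.03, and the Cdk9 promoter peak one of 0.05 (adjusted p = 0.986). The pair of gaining peaks thus sat beside denser ones that did not pass.

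The Mir7023 peak lay in intron 8 of Pik3cd, which encodes the p110δ catalytic subunit of phosphoinositide 3-kinase in leukocytes. It held 97.1, 97.5, 80.6, 154, 192 and 168 tags, with no overlap and a log2 change of 0.90 ± 0.18 (adjusted p = 0.000168), while the Pik3cd promoter peak changed by 0.06 (adjusted p = 0.967). The Mir8096 peak at chr1:85751508-85751775 was at -307 bp from its hairpin, with no coding start near it. It held 56.3, 61.4, 75.3, 126, 131 and 129 tags, the tightest tamoxifen values among these 4 regions, and a log2 change of 1.00 ± 0.20 (adjusted p = 0.000291).

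**Figure D2:**
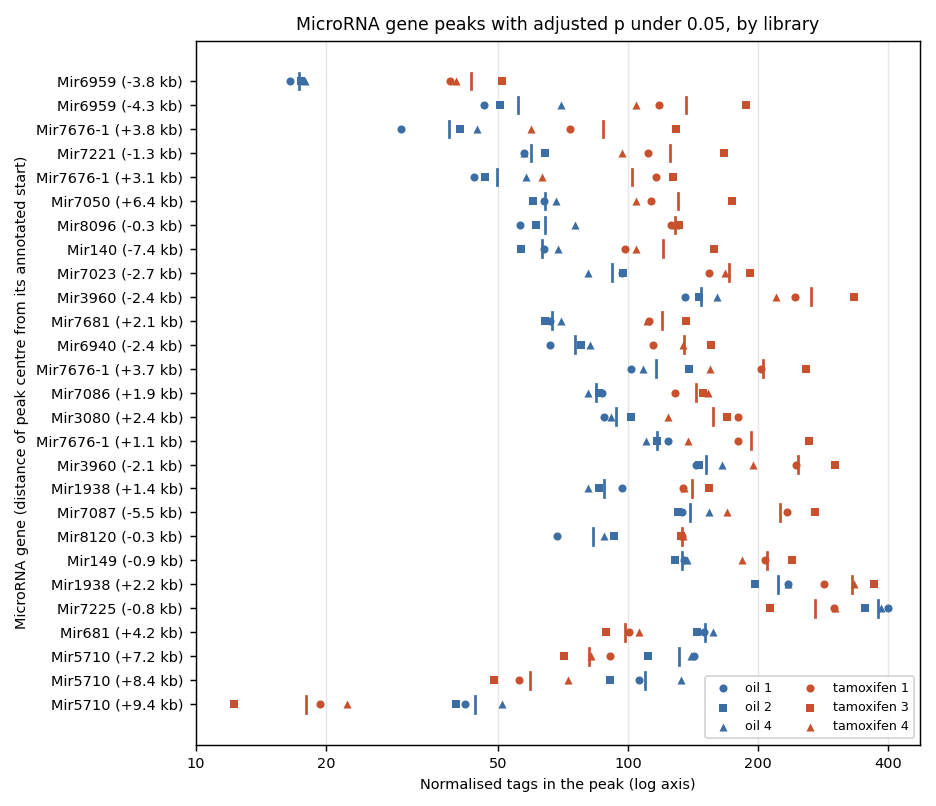
Normalised tags (log axis) of the 27 peaks with an adjusted p under 0.05, 1 line per peak, named by microRNA gene and distance in kb. Blue symbols are oil libraries and orange symbols tamoxifen libraries, with circles, squares and triangles for the replicates in the key and a vertical bar at each group's mean. In every line the groups are apart, which follows largely from selection by the p-value. The orange square, tamoxifen 3, is farthest from the blue symbols in 24 lines.

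In Fxyd5 and Il10ra a microRNA gene peak and peaks at the promoter of the host gene gained tags. The Mir7050 peak in Fxyd5, a regulator of the sodium pump, held 64.0, 60.5, 68.1, 113, 174 and 104 tags, a log2 change of 1.02 ± 0.22 (adjusted p = 0.00143). Here the host's promoter moved too, with 172, 162, 172, 294, 344 and 268 tags in its densest peak (log2 change 0.84 ± 0.14, adjusted p = 1.53e-06), and 2 of its 3 promoter peaks passed. The Mir7086 peak in Il10ra, the ligand-binding chain of the interleukin-10 receptor, held 87.1, 85.8, 80.6, 129, 149 and 154 tags, a log2 change of 0.77 ± 0.18 (adjusted p = 0.00484). The densest Il10ra promoter peak held 147, 169.7, 144, 249, 252 and 199 tags, a log2 change of 0.60 ± 0.15 (adjusted p = 0.00957), again with 2 of 3 promoter peaks passed. A promoter peak, assigned in the table to the gene itself and within 1000 bp of its start, was looked for in 21 genes that held or lay beside a passed microRNA gene peak. Of the 19 genes that had one, Fxyd5 and Il10ra were the 2 in which it passed. Peaks that the table names for a microRNA are not in this count, such as the passed Mir8120 peak at -544 bp from the Lekr1 start.

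The peaks at Mir149 and Mir140 belong to microRNAs with known roles elsewhere. Mir149 lies in Gpc1, a heparan sulphate proteoglycan, and its peak at -885 bp held 135, 129, 137, 208, 239.5 and 183 tags (log2 change 0.65 ± 0.16, adjusted p = 0.00516). Mir140, best known from cartilage, lies in the ubiquitin ligase gene Wwp2, and its peak at -7380 bp held 64.0, 56.6, 69.0, 98.6, 158 and 104 tags (0.92 ± 0.23, adjusted p = 0.00696). In both the groups stood apart, and the host promoters changed by 0.30 (adjusted p = 0.514) and 0.15 (adjusted p = 0.816). The Mir7221 peak, in intergenic DNA near the sulphotransferase gene Chst1, held 57.4, 64.4, 57.3, 111, 167 and 96.8 tags, a log2 change of 1.06 ± 0.23 (adjusted p = 0.00115).

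Further gains were measured at Mir6940 in Cep170b (log2 change 0.83, adjusted p = 0.00484), at Mir7681 inside the ubiquitin ligase gene Hecw2 (0.84, adjusted p = 0.00612) and at Mir3080 in the transcription factor gene Tcf20 (0.75, adjusted p = 0.00994). Mir7681 lies on the other strand than Hecw2. Beyond the 15 gaining peaks with the smallest adjusted p that a rule selected, the others were named after their values were seen. Among them were Mir7087 in Sidt2, a lysosomal membrane protein (0.68, adjusted p = 0.0108), and Mir8120, at -293 bp and beside the start of Lekr1 (0.68, adjusted p = 0.0307). At Mir8120 the tamoxifen values were nearly equal at 133, 133 and 134 tags, above 68.4, 92.6 and 87.8 with oil.

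At Csf2rb and Csf2rb2 runs of peaks had more tags after tamoxifen, of which 3 of 16 and 1 of 4 passed. Such runs, here and at Mir1938, Mir5710 and Mir681 below, were chosen after the passed peaks were known. Their shared direction is a description and not independent support. Csf2rb encodes the common β chain of the receptors for interleukin-3, interleukin-5 and GM-CSF, and Csf2rb2 a β chain of the interleukin-3 receptor that mice have in addition. The genes arose by duplication, and the Mir7676-1 and Mir7676-2 hairpins near them are identical over 62 bases, so that how tags were divided between the copies is uncertain. The table names peaks at both copies Mir7676-1. At the Csf2rb copy (chr15:78349180-78358247) 16 of 16 peaks had more tags after tamoxifen, 15 had an unadjusted p under 0.05 and 3 passed, with log2 changes from 0.42 to 2.13.

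The passed peak with the smallest adjusted p there held 101, 138, 108, 203, 258 and 155 tags (log2 change 0.82 ± 0.19, adjusted p = 0.00334). Summed over the 16 peaks, the libraries held 750.1, 917, 848, 1758, 2030.0 and 916 tags. Tamoxifen 4 thus lay within the oil range, while tamoxifen 1 and tamoxifen 3 were far above it. At the peak with the largest change, 8745 bp downstream, the values were 4.41, 9.75, 8.06, 54.1, 37.9 and 5.59 tags, and its adjusted p was 0.38 with all libraries. At the Csf2rb2 copy 4 of 4 peaks had more tags and 1 passed, with 29.8, 41.0, 44.8, 73.5, 129 and 59.6 tags (log2 change 1.17 ± 0.30, adjusted p = 0.0109). The 11 peaks named Mir7676-2 held 0 that passed in DESeq2 and 3 with an unadjusted p under 0.05, with 10 higher and 1 lower and log2 changes from -0.01 to 0.69. Their sums were 678, 715, 672, 834, 983 and 731 tags, with tamoxifen 4 close to the highest oil value. The promoter peaks of Csf2rb (0.24, adjusted p = 0.438) and Csf2rb2 (0.43, adjusted p = 0.169) did not pass.

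A second run of peaks with higher values followed the hairpin of Mir1938, which lies at the start of Ifrd1, the interferon-related developmental regulator, a transcriptional co-regulator. All 17 peaks there had a positive log2 change, 10 with an unadjusted p under 0.05 and 2 passed, in intron 1. The peak at chr12:40220313-40220991 held 235, 197, 235, 284, 372 and 334 tags (0.57 ± 0.13, adjusted p = 0.00407) and that at chr12:40221233-40221512 held 97.1, 85.8, 80.6, 134, 154 and 135 (0.69 ± 0.18, adjusted p = 0.0201). Both showed no overlap between the groups. The peak over the hairpin and the Ifrd1 promoter, with 775, 712, 726, 740.4, 773 and 732 tags, had a log2 change of 0.02 (adjusted p = 0.992). Over the run the sums were 3313, 2841, 2925, 3734, 3874 and 3615 tags, a ratio of 1.24 between the group means.

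**Figure D3:**
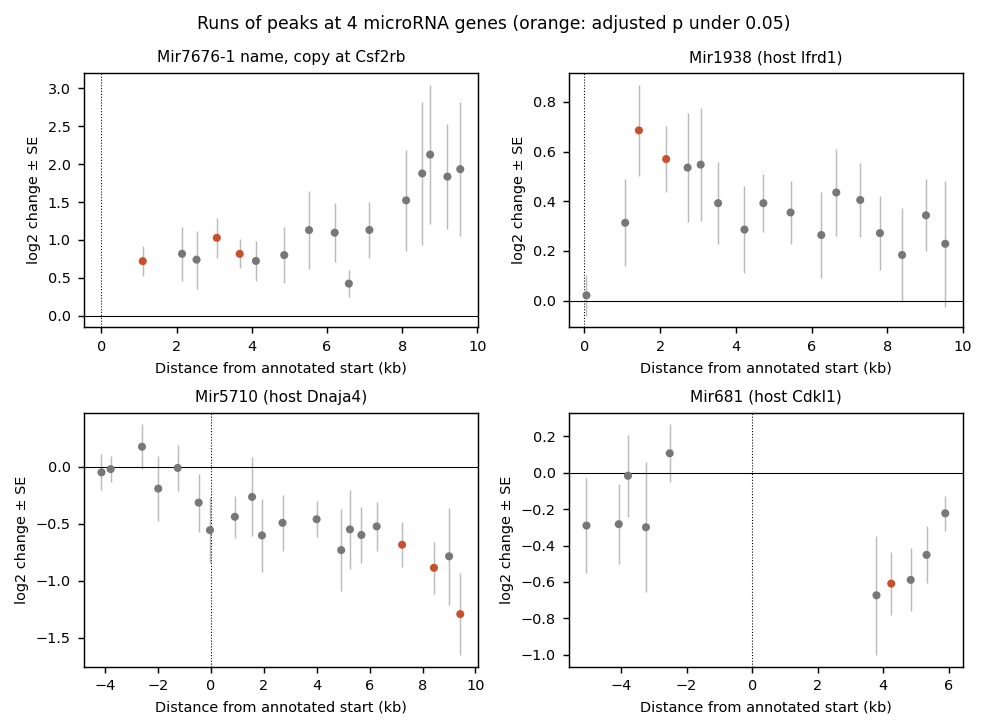
Log2 change (tamoxifen over oil, vertical axis, bars ± SE) of each peak against its distance in kb from the annotated start of Mir7676-1 at the Csf2rb copy, Mir1938, Mir5710 and Mir681. Orange points passed at an adjusted p under 0.05. All 16 and 17 points of the first pair lie above 0, and the 13 points downstream of Mir5710 and the 5 downstream of Mir681 lie below it.

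Of the 5 losses, 3 lay at Mir5710, 1 at Mir681 and 1 at Mir7225. Mir5710 lies in Dnaja4, which encodes a co-chaperone of the Hsp40 family, and its downstream peaks reach into the neighbouring Wdr61, a subunit of the PAF1 transcription complex. The peak at chr9:54716479-54717014 held 106, 90.7, 133, 56.1, 49.0 and 72.6 tags, a log2 change of -0.89 ± 0.23 (adjusted p = 0.0143). That at chr9:54717586-54717897 held 41.9, 40.0, 51.1, 19.3, 12.3 and 22.3, a log2 change of -1.29 ± 0.36 (adjusted p = 0.0291), and was the 1 peak called with fewer tags. A passed peak in the last exon of Dnaja4 changed by -0.68 ± 0.20 (adjusted p = 0.0384).

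In all 3 the tamoxifen values lay below every oil value. Split at the hairpin, which was done after the values were seen, 13 of 13 downstream peaks had fewer tags, 9 with an unadjusted p under 0.05, and their median log2 change was -0.60. The 7 upstream peaks, towards the Dnaja4 promoter, had a median of -0.05, and 0 passed in DESeq2 or reached an unadjusted p under 0.05. The sums downstream were 1211, 1052, 1344, 970.4, 706 and 750.5 tags, without overlap. The promoter peaks of Dnaja4 (-0.00, adjusted p = 0.999) and Wdr61 (0.03, adjusted p = 0.99) did not pass.

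Mir681 lies in Cdkl1, which encodes a cyclin-dependent-kinase-like kinase. Its passed peak, printed above and in intron 4 of the gene, held 150.0, 144, 158, 101, 89.1 and 106 tags, a log2 change of -0.61 ± 0.17 (adjusted p = 0.0386). Its neighbour at chr12:69758999-69759220 held 183, 190.2, 206, 131, 95.8 and 156 tags, with a value of -0.59 ± 0.17 just past the threshold (adjusted p = 0.0501). The split at the hairpin was again made after the values were seen. All 5 peaks downstream of the hairpin had fewer tags with an unadjusted p under 0.05. Of the 5 upstream 0 reached such a p, with a median of -0.28. The remaining loss was at -836 bp from Mir7225 in Pde4dip, a centrosome and Golgi scaffold, where the dense peak held 399, 353, 385, 299.6, 213 and 301 tags (-0.48 ± 0.13, adjusted p = 0.027). The Pde4dip promoter peak changed by -0.02 (adjusted p = 0.994).

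The 9 lists of microRNA genes, most known from blood and the last from other tissues, held no peak (0) that passed in DESeq2. Of all microRNA gene peaks 1.05% passed and of all peaks 1.39%. The difference from these shares was not tested. Over the 331 peaks of these lists 13 had an unadjusted p under 0.05, beside the 9.02% of all peaks given above. The interferon and inflammation list had 66 peaks at 12 genes with a median log2 change of 0.05, and 4 with an unadjusted p under 0.05. Mir132, Mir212 and Mir146b, induced by CREB or NF-kB in other settings, had the most oil tags among this list's peaks nearest each start. The Mir132 peak at -121 bp held 395, 421, 373, 429, 418 and 379.9 tags, overlapping fully (0.05, adjusted p = 0.982), and the Mir212 peak overlapped as well (-0.07, adjusted p = 0.965). The Mir146b peak held 313, 310.1, 314, 296, 236 and 299.8 tags, with each tamoxifen value below oil (-0.17 ± 0.12, adjusted p = 0.808). The 25 peaks of Mir21a had log2 changes from -0.16 to 0.35, and 1 had an unadjusted p under 0.05.

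The myeloid and progenitor list had 75 peaks at 12 genes, a median of -0.06 and 4 peaks with an unadjusted p under 0.05. Mir142, one of the most abundant microRNAs of blood cells, held 395, 384, 379, 399, 419 and 400.4 tags at -147 bp (0.07 ± 0.10, adjusted p = 0.953). Its 17 peaks summed to 4257, 4166, 4122, 4041, 4379 and 4128 tags, with the groups overlapping. The antisense Mir142b peak had 0.21 (adjusted p = 0.662). Mir193a, known as a gene that AML1/ETO represses, held 263, 279.9, 273, 251, 243 and 240.2 tags (-0.15 ± 0.12, adjusted p = 0.842), with the tamoxifen values slightly below all oil values. Of the 13 peaks named for Mir23a, 12 had a log2 change above 0 and 1 an unadjusted p under 0.05, and the ratio of their sums was 1.10. The counts and sums over all peaks of Mir21a, Mir142, Mir23a and Mir144 were outside the naming rule and are a description.

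The let-7 list, of tumour-suppressing microRNAs known for promoting differentiation, had 33 peaks at 6 genes with a median of -0.07 and 2 peaks with an unadjusted p under 0.05. Counted by the seed GAGGUAG, which adds Mir7k, 13 of 34 were higher and 21 lower. The Mirlet7i peak held 392, 379, 366, 416, 419 and 348 tags, which overlapped (0.06, adjusted p = 0.976), and Mirlet7b and Mirlet7d had 0.19 (adjusted p = 0.956) and 0.09 (adjusted p = 0.992). The Mir17-92 list, of growth-promoting clusters, had 8 peaks at 3 genes, a median of -0.09 and 0 with an unadjusted p under 0.05. At its cluster start the Mir17 peak held 559, 532, 531, 566, 579 and 533 tags, again overlapping (0.05 ± 0.09, adjusted p = 0.974). Mir25 and Mir92-1, which share the seed AUUGCAC, had values of -0.27 (adjusted p = 0.902) and -0.08 (adjusted p = 0.993).

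The p53 and stress list had 35 peaks at 10 genes with a median of -0.02, and 0 had an unadjusted p under 0.05. The hypoxia microRNA Mir210 held 775, 742, 707, 733, 771 and 693 tags (-0.02, adjusted p = 0.994), and the p53 target Mir34c 135, 109, 133, 124, 154 and 138 (0.14, adjusted p = 0.943). Mir194-2 had -0.13 (adjusted p = 0.969). The Hox cluster list had 22 peaks at 5 genes, a median of -0.05 and 0 with an unadjusted p under 0.05, with 0.08 at Mir615, 0.23 at Mir196b and -0.01 at Mir196a-2 (adjusted p = 0.965, 0.968 and 0.999). In these named genes the groups overlapped.

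The erythroid list had 9 peaks at 2 genes, the lowest median of the 9 lists, -0.34, and 2 peaks with an unadjusted p under 0.05. Mir144, part of the locus that red cell precursors use, held 62.9, 52.7, 46.6, 36.7, 14.5 and 29.8 tags at -335 bp, with all tamoxifen values below oil and a value of -0.98 ± 0.33 that did not pass (adjusted p = 0.129). All 5 Mir144 peaks had a log2 change below 0, with sums of 498, 515, 474, 412, 335 and 442 tags. The erythroid marker promoters were lower with tamoxifen too (164 to 176 against 183 to 186 tags per 1000000 in peaks), and their part in the Mir144 values was not tested. Mir3107 had -0.02 (adjusted p = 0.998).

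The lymphoid list had 28 peaks at 5 genes, a median of -0.13 and 0 peaks with an unadjusted p under 0.05. Mir181c held 30.9, 28.3, 32.3, 18.4, 20.1 and 16.8 tags, apart between the groups but few (-0.73 ± 0.38, adjusted p = 0.57), and Mir150 and Mir128-2 had -0.20 and -0.32 (adjusted p = 0.942 and 0.882). The list of muscle, liver, neuron and epithelium microRNAs had 55 peaks at 11 genes, a median of 0.10 and 1 peak with an unadjusted p under 0.05. Among its peaks nearest each start, those with the most oil tags were at Mir499 (-0.22, adjusted p = 0.914), Mir124a-3 (-0.03, adjusted p = 0.997) and Mir205 (0.10, adjusted p = 0.979). Without tamoxifen 4, 3 listed peaks passed (0.906%), beside 3.38% of microRNA gene peaks and 3.71% of all peaks, a difference that was not tested. All 3 were lower: at Mir499 (-5715 bp, -0.59, adjusted p = 0.0267), Mir3107 (-1947 bp, -0.77, adjusted p = 0.0391) and Mir193b (-5645 bp, -0.68, adjusted p = 0.0481). They were named after their values were seen.

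**Figure D4:**
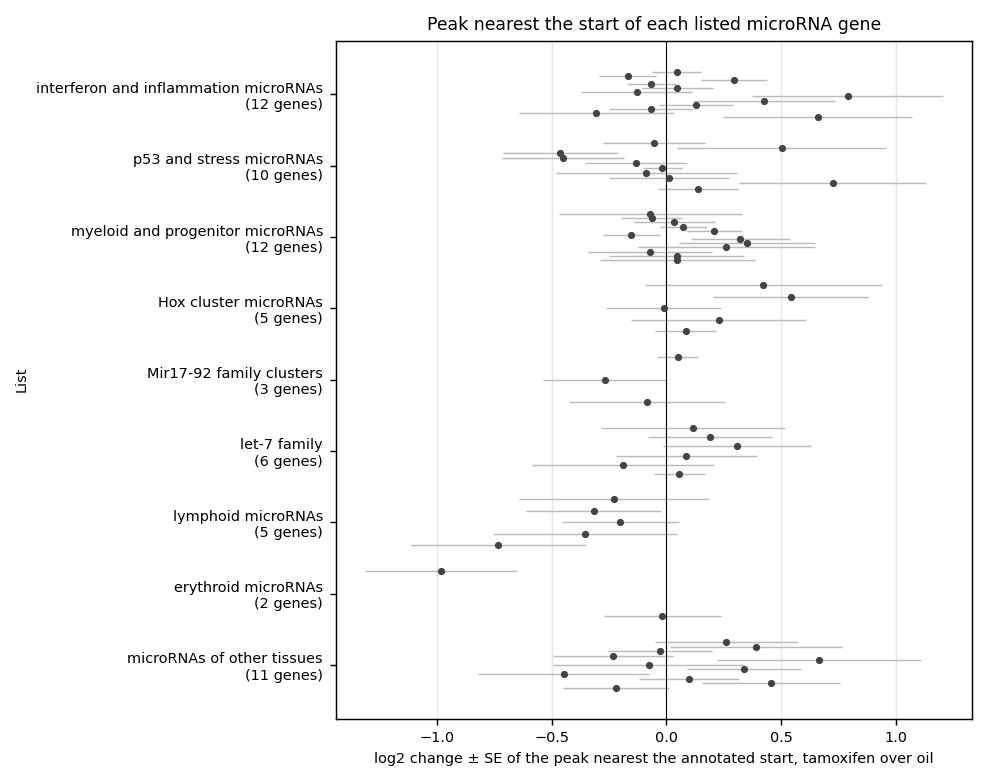
Log2 change (tamoxifen over oil, horizontal axis, bars ± SE) of the peak nearest the annotated start of each microRNA gene in the 9 lists (vertical axis, with the number of genes). No point (0) passed at an adjusted p under 0.05, and the points farthest to the left are Mir144 at -0.98 and Mir181c at -0.73.

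Of the 6 densest microRNA gene peaks, 4 were classed as promoter in the table and 2, at Mir7240 and Mirlet7a-1, as intergenic. Per kb of peak width with oil, the Mir5627 peak at the start of Dnajb9, a chaperone of the endoplasmic reticulum, held 4007 tags, the Mir1938 peak at Ifrd1 3670, Mir7240 in Mast3 3664, Mirlet7a-1 at -8337 bp 3621, Mir5133 at Glce 3598 and Mir210 3582. Their log2 changes ran from -0.02 to 0.05, each with an SE of 0.08 or 0.09. The Mir5627 peak held 882, 826, 768, 835, 914 and 788 tags and the Mirlet7a-1 peak 794, 741, 702, 779, 819 and 718, both overlapping between the groups.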

How the data were processed

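Per the labels and the study's methods, the authors mapped paired reads to mm10 with Bowtie2, called peaks of 200 bp per group with HOMER, merged the lists and counted tags per merged peak in each library (tool versions and any shift for the transposase are not given in the sources used here). The deposited table holds an estimated count, raw tags with each mate of a pair worth 0.5, and no position could add more than 3, a cap on the densest peaks. A score column carried from the authors' peak lists was deposited and not used.

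Tags were rounded to whole numbers and all 175929 peaks were fitted at once with DESeq2 1.42.0 (R 4.3.3, Wald test, tamoxifen against oil, Benjamini-Hochberg adjustment over all peaks). A peak passed at an adjusted p under 0.05 and was called at a fold change over 2 as well. Normalised tags are tags divided by DESeq2 size factors, and ± is 1 SE of the fit. Alternatives used edgeR 4.0.16 with limma 3.58.1. The fits were tested on simulated data.

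Start distances were checked against the RefSeq annotation of GRCm38.p6: 2511 of 2573 peaks had their microRNA gene in it, and 99.2% of these lay within 2 bp. The peaks named are those passed, at most 15 in each direction by adjusted p, 1 further loss by unadjusted p, the 3 peaks with the most oil tags among those nearest the starts in each list, and the 6 densest. MicroRNA and marker lists, and the regions studied, were chosen with earlier results of these data known. Marker levels are tags of peaks within 1000 bp of a start. Libraries are replicates by label. The methods describe cells sorted from 3 mice in each group, with 1 set of sorts used for ATAC-seq, whereas the study's note on replication gives 2 biological replicates for ATAC-seq.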

Additional observations from a re-analysis of the deposited data

How the results depend on the processing

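Compared with 27 passed and 7 called microRNA gene peaks, edgeR's quasi-likelihood test gave 62 passed (2.41%, beside 2.92% of all peaks, with 26 of the 27 among them) and 14 called. Limiting the distance to 3000 bp left 15 and 1, and to 1000 bp 4 and 0. With no fold change limit 27 were called. Leaving out 1 library gave 4 to 87 passed and 0 to 27 called, both lowest without tamoxifen 3 and highest without tamoxifen 4, and medians of -0.02 to -0.01. The median log2 change was -0.0236 with tags in peaks as size factors, 0.00108 with total mapped tags and 0.00538 within 1000 bp. TMM factors, either tag total as size factors, autosomes alone, separate fits of distal and proximal peaks, and a filter on low tags moved the counts by less than 1.5 times, to between 27 and 31 passed. An adjusted p under 0.1 gave 10 called. The share over all peaks is given only for edgeR's passed peaks, the DESeq2 fit of all libraries and the peaks passed without tamoxifen 4. The other counts do not show whether microRNA gene peaks changed apart from the whole table. A replicate block on the 4 libraries whose numbers occur in both groups gave 0 passed and 0 called with DESeq2, with 52 passed over all peaks. Deviations of libraries with the same number correlated at -0.04 and 0.05 over all peaks. At this depth counting error can hide a shared effect, so these values do not decide whether the numbers pair the libraries. Of the 27, none (0) turned direction in any of these settings. A median of 43 to 56 tags per peak limits what could be detected.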
